A study of Mus musculus with 9 samples.

Results

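Serpins are protease inhibitors that present a reactive loop to their target protease and trap it in a covalent complex. Most members of clade A are secreted, whereas clade B members lack a classical signal peptide and stay in the cytosol and nucleus, where they can bind proteases that leak from granules and lysosomes. Myeloid progenitors load their granules with elastase, proteinase 3 and cathepsin G, and intracellular serpins are known for guarding such cells against their own proteases. The genes described here are 6 intracellular serpins of the mouse: the clade A3 genes *Serpina3f* and *Serpina3g*, and the clade B genes *Serpinb1a*, *Serpinb6a*, *Serpinb6b* and *Serpinb9*. They were chosen by gene name, with earlier results of the same libraries in view, and are 6 of 55401 genes in the deposited tables. Levels and differences of these 6 genes are therefore given as a description, without the p-value of any single member. Where members past a threshold are counted, the share of all genes past it stands beside the count.

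RNA-Seq was performed on 9 libraries of color-coded mouse leukemia clones, 3 per group. All clones were H9M cells, that is bone marrow progenitors transformed by a retroviral *Meis1*-2A-*Hoxa9* vector, and carried the FGB-D color-coding vector. They were transplanted as a mixture into lethally irradiated mice, and CD45.1+ EGFRt bright cKit+ CD11b dim or negative spleen cells were sorted by color code. The H9M cells came from C57BL/6-Ly5.1 bone marrow, the recipients were C57Bl6/J mice that also received helper bone marrow, and the age of the recipients is not given in the sources used here.

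Pre-malignant libraries came from mouse #15, which was sacrificed before leukemia developed, and represent the clones 43BC-D and 38BC-D as well as 33BC-D. Their counterparts, the de novo expanded libraries, came from endpoint mice in which these clones had grown out (38BC-D in mouse #13, 43BC-D in mouse #14, 33BC-D in mouse #17). The 3 stably expanded libraries are 1 clone, 34BC-D, sorted from the same mice #13, #14 and #17. Differences from the pre-malignant group cannot be told apart from differences between mouse #15 and the endpoint mice. Clone 34BC-D is not among the pre-malignant or de novo expanded clones, so that stable expansion and the identity of this clone cannot be told apart either. Per the labels a column belongs to a group, without its clone or mouse, and library numbers 1 to 3 are names only. p-values, where given for other genes, measure the spread between these libraries. Each library had between 10379739 and 15551196 reads on genes, so that 3 reads, the most that a count of 0 allows, equal between 0.193 and 0.289 CPM (reads of a gene, scaled to a total of 1000000 reads on genes). This limit covers counting error only.

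*Serpina3f* lies on the plus strand of chromosome 12 at 104214544 to 104221129 (GRCm38.p6), and *Serpina3g* begins 15115 bases further on, at 104236245 to 104241939 on the same strand. *Serpina3g* (also known as Spi2A) is an interferon- and NF-κB-inducible inhibitor of lysosomal cysteine cathepsins. Both genes belong to a Serpina3 cluster of 14 genes over 301.6 kb, and the other 12 genes of this cluster had 58 reads together in all 9 libraries. The 4 clade B genes lie on chromosome 13, in a cluster of 16 genes over 1160.7 kb whose other 12 genes had 67 reads together. *Serpinb1a*, an inhibitor of elastase, proteinase 3 and cathepsin G, lies at 32842092 to 32851185 on the minus strand. *Serpinb6b* lies at 32965209 to 32979067 and *Serpinb9*, an inhibitor of granzyme B, at 33003250 to 33017957, both on the plus strand. *Serpinb6a*, an inhibitor of cathepsin G and other trypsin- and chymotrypsin-like proteases, lies at 33917918 to 34002794 on the minus strand. No other gene of the Serpina3 cluster had more than 13 reads over the 9 libraries, and no other gene of the chromosome 13 cluster had more than 16.

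*Serpina3f* and *Serpina3g* were the members that were lower in leukemic cells, so the sequence in front of both genes is shown. Given are the 250 bases upstream of the start site in RefSeq, 5′ to 3′ on the plus strand, from chr12:104214294-104214543 for *Serpina3f* (the first of 2 listed start sites) and chr12:104235897-104236146 for *Serpina3g*, build GRCm38.p6. Distances to a start, here and below, are counted from the RefSeq start, which can differ from the gene start given above. For *Serpina3g* it lies upstream of that gene start (104236245). Capitals mark matches to the interferon-γ activated site TTCNNNGAA (GAS), to the core of the interferon-stimulated response element GAAANNGAA (ISRE) and to the NF-κB core GGNNTTTCC, on either strand.
Serpina3f: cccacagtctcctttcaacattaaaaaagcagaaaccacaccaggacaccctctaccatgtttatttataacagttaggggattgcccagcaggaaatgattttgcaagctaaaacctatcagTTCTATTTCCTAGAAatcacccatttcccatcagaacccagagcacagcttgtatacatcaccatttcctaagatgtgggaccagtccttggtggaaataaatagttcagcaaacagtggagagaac
Serpina3g: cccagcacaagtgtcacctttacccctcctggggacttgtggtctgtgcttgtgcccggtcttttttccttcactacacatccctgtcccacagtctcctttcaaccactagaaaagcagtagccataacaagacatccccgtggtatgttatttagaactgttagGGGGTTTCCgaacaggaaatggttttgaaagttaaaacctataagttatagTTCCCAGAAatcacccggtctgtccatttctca
The windows aligned to each other over 147 columns with 81.0% identity, from 250 to 106 bases before the start of *Serpina3f* and from 163 to 18 bases before that of *Serpina3g*. Within this shared stretch both carried 1 GAS match, TTCCTAGAA at 121 to 113 bases before the start of *Serpina3f* and TTCCCAGAA at 33 to 25 bases before the start of *Serpina3g*. In *Serpina3f* an ISRE match on the minus strand (TTCTATTTC, 127 to 119 bases before the start) overlapped the GAS match, and the *Serpina3g* window held none. In *Serpina3g* the NF-κB match GGGGTTTCC lay 84 to 76 bases before the start, and the *Serpina3f* window held no match to these letters.

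The same search, over both strands, was made in 32851 RefSeq windows of this length. A GAS match was found in 7.02% of them, an ISRE match in 7.13%, an NF-κB match in 4.93% and a match to the AP-1 motif TGANTCA in 6.75%. Of the clade B genes, *Serpinb9* had 1 ISRE match, TTCACTTTC on the minus strand at 45 to 37 bases before its start. The first of 2 *Serpinb6a* windows had a GAS match (TTCCGGGAA) that overlapped an ISRE match (TTCGATTTC, minus strand), and *Serpinb6b* had none of these motifs. *Serpinb1a* was the 1 member without an entry. These are matches of letters and were not tested for binding.

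Since the members are close relatives and reads were 38 bases long, stretches of this length were compared with the transcripts of all coding genes (GENCODE release M1). The longest transcripts of *Serpina3f* and *Serpina3g* aligned over 1758 columns with 89.0% identity. *Serpina3f* shared 391 of its 2326 different 38-base stretches (16.8%) with other genes and *Serpina3g* shared 423 of 2327 (18.2%), of which 256 were shared between these genes. The share was 6.1% for *Serpinb1a*, 4.2% for *Serpinb6b*, 2.4% for *Serpinb6a* and 2.3% for *Serpinb9*. *Serpinb6a* and *Serpinb6b*, with 83.6% identity over 1247 columns, had 20 stretches in common. Values of *Serpina3f* and *Serpina3g* are the most uncertain in this respect, because a read from a shared stretch fits more than 1 gene.

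**Figure D1:**
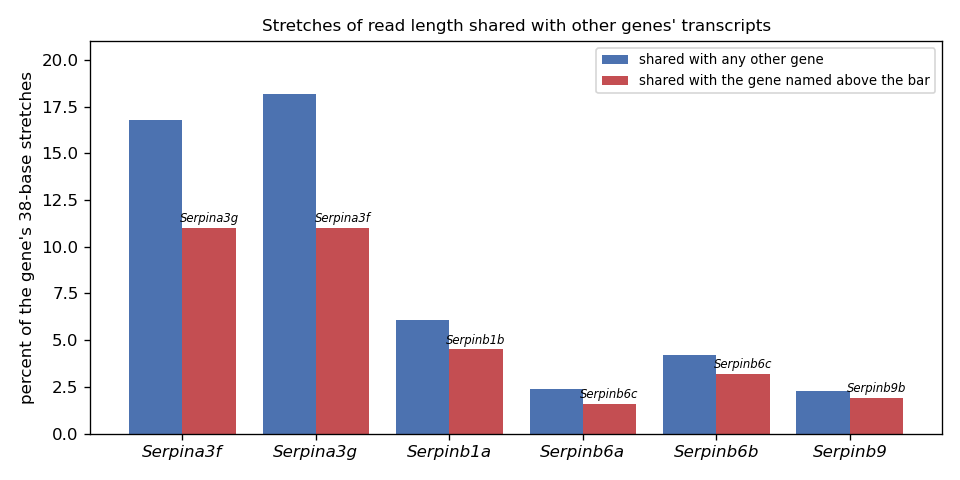
For each of the 6 serpin genes, the percent of its 38-base transcript stretches that also occur in any other gene (blue) and in the gene named above the bar (red). *Serpina3f* and *Serpina3g* share 16.8% and 18.2% of their stretches, and the clade B genes between 2.3% and 6.1%.

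Overlapping annotation also touches some members. In *Serpina3g*, 1170 of 2105 exon bases are also annotated to an unnamed gene on the same strand, on which 0 reads were counted, and how reads in these bases were treated is not given in the sources used here. *Serpinb6a* shares 762 exon bases with *Nqo2*, 584 with 1110046J04Rik and 241 with *Ripk1*, all on the opposite strand. The library kit marks the strand, but the strand setting of the counting is not given in the sources used here, so reads of these partners cannot be told apart from those of *Serpinb6a*.

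Levels per length were compared as RPKM (CPM per 1000 bases of exons). The annotated exons of *Serpinb6a* cover 5409 bases, whereas its longest transcript in GENCODE release M1 has 1654 bases. Its RPKM, its percentile and its place in the orders below may therefore be too low. They may also be too high, if reads of the opposite-strand partners were counted for it. Over the 9 libraries, *Ripk1* had 19546 reads and *Nqo2* 4459, beside 830 for *Serpinb6a*. *Serpinb1a* was the most abundant member in every library and made up between 84.9% and 97.3% of the summed RPKM of the 6 genes. Its mean RPKM over all 9 libraries was 78.4, which was above 97.2% of the expressed genes, while the other members stood between the percentiles 0.3 (*Serpinb6b*) and 26.6 (*Serpina3g*). In the pre-malignant group the order was *Serpinb1a* with an RPKM of 55.4 ± 3.2 (SD, n = 3), *Serpina3g* with 3.92 ± 1.67, *Serpina3f* with 2.44 ± 0.73, *Serpinb6a* with 1.00 ± 0.35, *Serpinb9* with 0.885 ± 0.258 and *Serpinb6b* with 0.0211 ± 0.0184. The libraries of *Serpina3g* and *Serpina3f* overlapped in level, as did those of *Serpinb6a* and *Serpinb9*.

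In both leukemic groups, *Serpinb6a* was second in this order. In de novo expanded clones, the mean RPKM was 74.5 ± 14.8 (SD, n = 3) for *Serpinb1a*, 1.24 ± 0.43 for *Serpinb6a*, 1.09 ± 0.43 for *Serpinb9*, 0.565 ± 0.330 for *Serpina3g*, 0.464 ± 0.188 for *Serpina3f* and 0.185 ± 0.216 for *Serpinb6b*. All neighbours from *Serpinb6a* downwards overlapped in this group. In the stably expanded clone, *Serpinb1a* reached 105 ± 25.02 (SD, n = 3), followed by *Serpinb6a* with 1.38 ± 0.19, *Serpina3g* with 1.13 ± 0.78, *Serpinb9* with 0.969 ± 0.295, *Serpina3f* with 0.538 ± 0.551 and *Serpinb6b* with 0.0385 ± 0.0432. Here *Serpinb6a* and *Serpina3g* overlapped, *Serpina3g* and *Serpinb9* overlapped, and *Serpinb9* and *Serpina3f* overlapped.

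Both clade A3 genes were lower in all 6 leukemic libraries than in any pre-malignant library. In the pre-malignant libraries 1 to 3, *Serpina3f* had 50, 86 and 105 reads, or 3.79, 5.89 and 7.09 CPM. In the de novo expanded libraries it had 18, 10 and 16 reads, or 1.502, 0.643 and 1.04 CPM. In the stably expanded libraries it had 41, 5 and 7 reads, or 2.68, 0.343 and 0.674 CPM. Library 1 of the stably expanded clone was thus the highest of the leukemic libraries but still below all pre-malignant ones. The mean of 5.59 ± 1.67 CPM (SD, n = 3) in pre-malignant clones was 5.26 times that of de novo expanded clones (1.06 ± 0.43) and 4.54 times that of the stably expanded clone (1.23 ± 1.26). Without stably expanded library 1, the latter ratio was 11.0.

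The pre-malignant libraries held 111, 68 and 173 reads of *Serpina3g*, which equals 8.42, 4.66 and 11.7 CPM. The de novo expanded libraries held 18, 26 and 6 reads (1.502, 1.67 and 0.392 CPM). The stably expanded libraries held 63, 12 and 23 reads (4.11, 0.822 and 2.22 CPM). As for *Serpina3f*, library 1 was the highest of the stably expanded libraries, and it came close to the lowest pre-malignant library. Means were 8.26 ± 3.52 CPM (SD, n = 3) in pre-malignant libraries, 1.19 ± 0.70 after de novo expansion and 2.38 ± 1.65 in the stably expanded clone, so that the pre-malignant mean was 6.95 and 3.46 times the leukemic means. Without stably expanded library 1, the ratio to the stably expanded clone was 5.43.

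**Figure D2:**
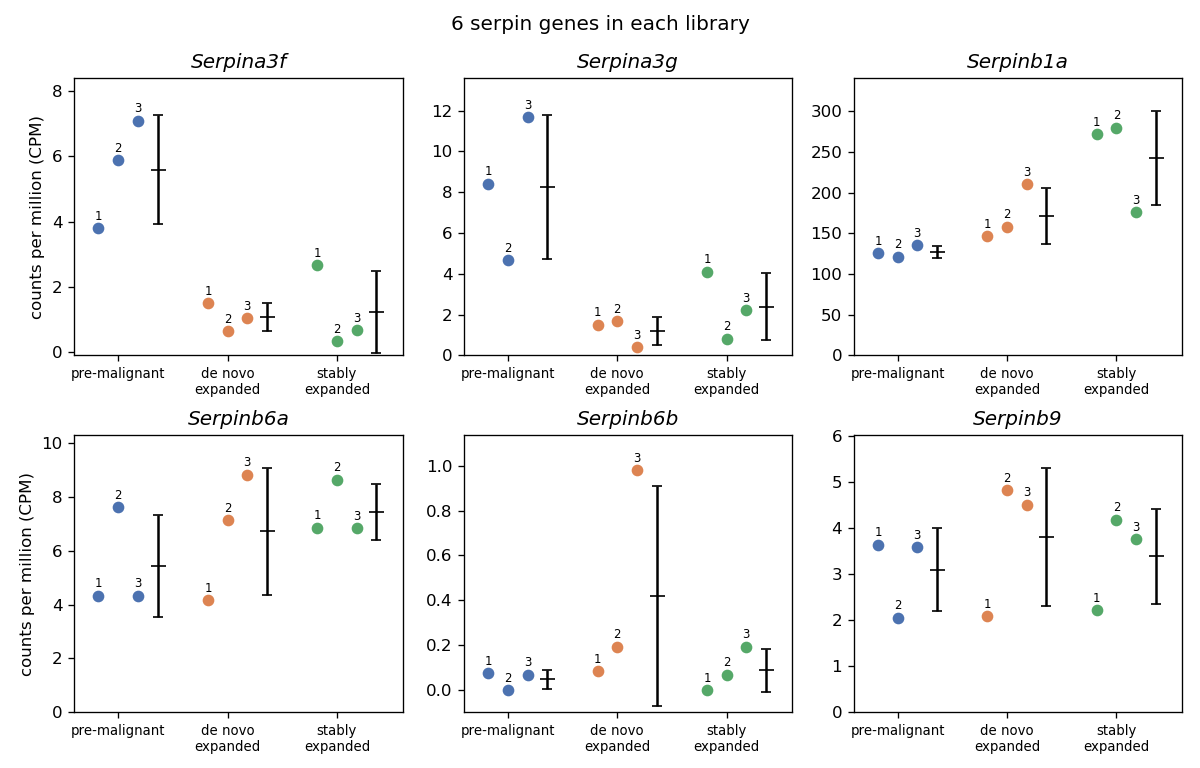
CPM of each serpin gene (linear axes) in the 3 libraries of each group, with the library number above each point and the mean ± SD in black. *Serpina3f* and *Serpina3g* are lower in all 6 leukemic libraries than in any pre-malignant library, *Serpinb1a* is higher in all of them, and the remaining members overlap between groups or have few reads.

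Because both genes share stretches of sequence, their sum was examined as well. *Serpina3f* and *Serpina3g* together had 12.2, 10.5 and 18.8 CPM in the pre-malignant libraries. De novo expanded libraries had sums of 3.00, 2.31 and 1.44 CPM, and the sums were 6.79, 1.16 and 2.89 CPM in stably expanded libraries. The groups did not overlap for the sum either. *Serpina3f* contributed between 23.3% and 72.7% of the reads of this pair, and both extremes came from leukemic libraries with few reads.

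*Serpinb1a* was higher in all 6 leukemic libraries than in any pre-malignant library. The pre-malignant libraries held 1655, 1773 and 2009 of its reads, or 126, 121 and 136 CPM. In the de novo expanded libraries it had 1751, 2462 and 3222 reads, or 146, 158 and 210 CPM. In the stably expanded libraries it had 4170, 4082 and 1830 reads, or 272, 280 and 176 CPM. The leukemic groups overlapped with each other, and library 3 was the highest of the de novo expanded and the lowest of the stably expanded libraries. The mean was 128 ± 7.37 CPM (SD, n = 3) in pre-malignant, 172 ± 34.2 after de novo expansion and 243 ± 57.6 in the stably expanded clone, and the leukemic means were 1.35 and 1.90 times the pre-malignant mean. Without de novo expanded library 3, the first ratio was 1.19.

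The other clade B genes showed no separation of the groups that rested on more than single reads. *Serpinb6a* had 4.33, 7.60 and 4.32 CPM in the pre-malignant, 4.17, 7.14 and 8.82 CPM in the de novo expanded, and 6.85, 8.63 and 6.84 CPM in the stably expanded libraries. The values of the 3 groups overlapped, with means of 5.42 ± 1.89, 6.71 ± 2.35 and 7.44 ± 1.03 CPM (SD, n = 3). *Serpinb9* had 3.64, 2.05 and 3.58 CPM in the pre-malignant, 2.09, 4.82 and 4.51 CPM in the de novo expanded, and 2.22, 4.18 and 3.76 CPM in the stably expanded libraries. Its means of 3.09 ± 0.90, 3.81 ± 1.497 and 3.39 ± 1.03 CPM (SD, n = 3) lay within 1 SD of each other.

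*Serpinb6b* was at the limit of detection. Its reads numbered 1, 0 and 1 in pre-malignant libraries 1 to 3. De novo expanded libraries held 1, 3 and 15 reads and stably expanded libraries held 0, 1 and 2. The 15 reads of de novo expanded library 3 (0.980 CPM) were the only value above the 3 reads that a count of 0 allows. A fold change is not given, since the other groups are at or under this limit.

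The tables were next compared across all genes, to place the members beside the other genes of these libraries. limma was applied to log2(normalized count + 1), where a normalized count is a read count divided by the size factor of its library. Calls required a Benjamini-Hochberg adjusted p-value under 0.05 together with a change of 2-fold or more. Fold changes on this scale understate the change of genes with few reads. *Serpinb6b* did not reach the required mean normalized count of 10, so that 5 of the 6 members were tested in each comparison. Each comparison takes part in the choice of the members, so the counts that follow are not evidence on them.

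Between de novo expanded and pre-malignant clones, 0 of 14195 genes tested were called (0%), while the unadjusted p-value was under 0.05 for 1597. edgeR called 0 genes and DESeq2 62. No member was called by limma or edgeR, and DESeq2 called *Serpina3f* and *Serpina3g*. At an unadjusted p-value under 0.05 there were 3 members. The log2 fold changes were -2.33 ± 0.42 (SE) for *Serpina3f*, -2.83 ± 0.59 for *Serpina3g*, 0.43 ± 0.15 for *Serpinb1a*, 0.31 ± 0.37 for *Serpinb6a* and 0.26 ± 0.43 for *Serpinb9*. Of these 5 genes, 3 did not overlap between groups, compared with 19.1% of all genes tested. Without de novo expanded library 3, both clade A3 genes were called, as were *Elane* and *Tnfaip3* of the lists below. The share of all genes called with 1 library left out was not counted in any comparison. Calls of members in such fits, here and below, therefore cannot be set beside that share.

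In the stably expanded clone, 384 of 13968 genes differed from pre-malignant clones by this rule (2.75%), of which 168 were higher and 216 lower. *Serpina3f* was the 1 member called, with a log2 fold change of -2.53 ± 0.62 (SE). The call was lost without pre-malignant library 1, 2 or 3 and without stably expanded library 2 or 3, while *Serpina3f* and *Serpina3g* were both called without stably expanded library 1, and *Serpinb1a* was called without stably expanded library 3. The call of *Serpina3f* was also lost with quantile normalization and with 1 fit of all 9 libraries. edgeR called 377 genes and no member, and DESeq2 called 531 genes, among them *Serpina3f* and *Serpina3g*. *Serpina3g* had a log2 fold change of -1.92 ± 0.54, *Serpinb1a* of 0.90 ± 0.15, *Serpinb6a* of 0.50 ± 0.29 and *Serpinb9* of 0.13 ± 0.38. Here, too, 3 of 5 members did not overlap between groups, beside 30.7% of all genes tested. The pre-malignant libraries are shared by both comparisons, which are therefore not independent.

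Between the leukemic groups, 1 of 13758 genes was called (0.00727%), and it was not a member. edgeR called 1 gene and DESeq2 32. No member was called by limma, edgeR or DESeq2, and 0 members had an unadjusted p-value under 0.05, beside 664 of all genes tested. The log2 fold changes of stably over de novo expanded were -0.18 ± 0.76 (SE) for *Serpina3f*, 0.92 ± 0.75 for *Serpina3g*, 0.49 ± 0.21 for *Serpinb1a*, 0.21 ± 0.32 for *Serpinb6a* and -0.12 ± 0.43 for *Serpinb9*. All 5 overlapped between the groups, where 9.61% of all genes did not. The 95% intervals of these log2 fold changes were wide, from -1.96 to 1.597 for *Serpina3f* and from -0.82 to 2.67 for *Serpina3g*, and narrower for *Serpinb1a* (from -0.0031 to 0.99).

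**Figure D3:**
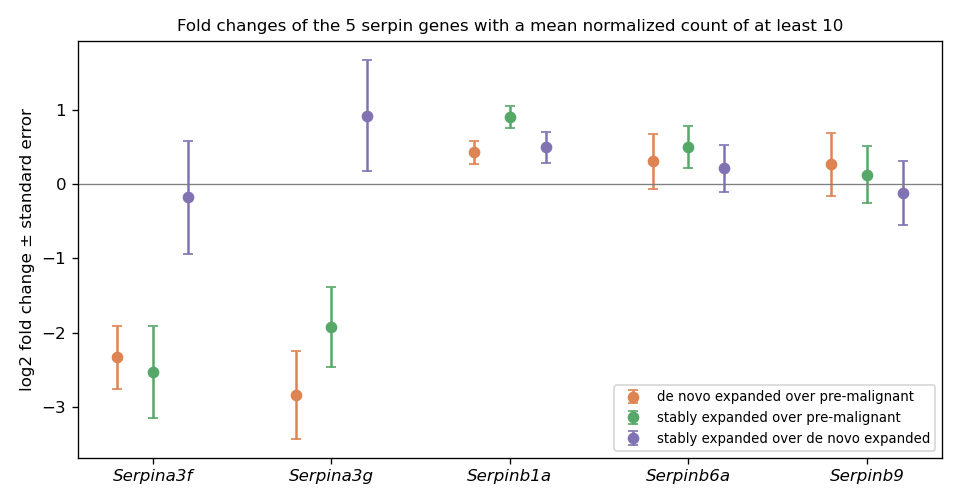
log2 fold change ± SE (limma, log2(normalized count + 1), 3 libraries per group) of the 5 members whose mean normalized count reached 10, in the 3 comparisons. *Serpina3f* and *Serpina3g* lie between -1.92 and -2.83 in both comparisons with pre-malignant clones, and *Serpinb1a* lies at 0.43 and 0.90.

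Summed levels of marker genes of other cell types differed between the groups as well. The summed level of 8 B cell markers was between 214 and 258 CPM in pre-malignant, between 76.2 and 206 CPM in de novo expanded and between 85.9 and 103 CPM in stably expanded libraries, so that the sum was lower in all leukemic than in all pre-malignant libraries. Most of this sum was *Ighm* (61.9 to 240 CPM), and single markers differed from it. *Cd79b*, a subunit of the B cell receptor, had between 4.66 and 10.1 CPM in pre-malignant, between 4.76 and 9.21 CPM in de novo expanded and between 9.73 and 17.8 CPM in stably expanded libraries. *Pax5*, *Cd22* and *Fcer2a* overlapped between pre-malignant and de novo expanded libraries. *Ms4a1*, which encodes the B cell antigen CD20, had between 2.05 and 2.84 CPM in pre-malignant and at most 1.00 CPM in leukemic libraries. The sum of 10 late neutrophil markers was between 189 and 234 CPM in pre-malignant, between 158 and 605 CPM in de novo expanded and between 568 and 4375 CPM in stably expanded libraries, and thus was higher in all stably expanded than in all pre-malignant libraries, as was *Serpinb1a*. *Ngp* alone had between 102 and 131 CPM in pre-malignant and between 360 and 2605 CPM in stably expanded libraries. *Camp*, *Ltf*, *Lcn2* and *Cxcr2* were also higher in all stably expanded than in all pre-malignant libraries. *S100a8*, *S100a9*, *Mmp8*, *Mmp9* and *Retnlg* overlapped between these groups. The gate of the sort, CD45.1+ EGFRt bright cKit+ CD11b dim or negative, selects against mature cells of the recipient. The part of these transcripts in the values of the serpins was not tested. In bulk libraries, fewer cells of a type and less RNA per cell cannot be told apart.

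The sum of 8 erythroid markers was between 18.9 and 35.2 CPM in pre-malignant, between 2.29 and 14.9 CPM in de novo expanded and between 2.31 and 24.3 CPM in stably expanded libraries, and thus was lower in all de novo expanded than in all pre-malignant libraries. T and NK cell markers (12 genes) summed to between 13.0 and 18.8 CPM in pre-malignant and between 19.2 and 33.7 CPM in stably expanded libraries, which did not overlap. In de novo expanded libraries the sums were 7.76, 7.27 and 74.6 CPM. *Nkg7* alone had between 5.20 and 11.1 CPM in pre-malignant and between 14.0 and 31.5 CPM in stably expanded libraries. It reached 70.7 CPM in de novo expanded libraries. *Cd4*, *Cd8a*, *Lck* and *Klrk1* overlapped between pre-malignant and stably expanded libraries. *Cd3e* was lower in the stably expanded libraries (at most 0.274 CPM, against at least 0.304 CPM). The sums ranged between 53.7 and 243 CPM for 9 macrophage markers, and between 40.7 and 302 CPM for 8 dendritic cell markers. Most of the macrophage sum was *Adgre1* and *Vcam1*, while *C1qa*, *Marco* and *Vsig4* had at most 0.616 CPM each. Most of the dendritic cell sum was *Flt3* (39.9 to 296 CPM). The 8 genes of the sort and design, among them *Kit* and *Hoxa9*, had between 8369 and 8769 CPM in pre-malignant, between 9643 and 10986 CPM in stably expanded, and 3154, 4660 and 18306 CPM in de novo expanded libraries. Most of this sum was the granule gene *Mpo* (myeloperoxidase), whereas *Kit* had between 142 and 287 CPM and *Hoxa9* between 315 and 687 CPM over the 9 libraries. De novo expanded library 3 stood apart from the other libraries of its group, and it was also the highest of them for *Serpinb1a*, *Serpinb6a* and *Serpinb6b* and the lowest for *Serpina3g*. No marker was at 0 in all 9 libraries.

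The genes whose profile over the 9 libraries came closest to each member were searched among 13960 genes, by the mean absolute difference of the centred log2 level. Values are a description, over libraries that share clones and mice. Closest to *Serpina3f* were *Ms4a1* (0.45) and the calcium channel gene *Cacna1e* (0.45), at a range of 4.13 for *Serpina3f* itself. Closest to *Serpina3g* were *Gm5112* (0.57) and the chemokine receptor gene *Cx3cr1* (0.59), and the distance between *Serpina3f* and *Serpina3g* was 0.72. Closest to *Serpinb1a* were the tubulin gene *Tuba4a* (0.12) and *Tmsb4x*, which encodes an actin-binding thymosin (0.12). *Nt5dc1* (0.15) and *Pyurf* (0.17) were closest to *Serpinb6a*, and *Nckipsd* (0.11) and *Stoml1* (0.15) to *Serpinb9*. None are given for *Serpinb6b*, which had too few reads for a profile.

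Of 62 other serpin genes in the tables, 4 reached a mean normalized count of 10, and none of them was called by limma in any comparison. In de novo expanded against pre-malignant clones, 0 of the 4 had an unadjusted p-value under 0.05, with a median log2 fold change of -0.81 beside 0.01 for all genes tested. In the stably expanded clone against pre-malignant clones there were 3, beside 3553 of all 13968 genes tested. The median of the 4 genes was -1.43 beside 0.00. Of the 3 genes, *Serpine2*, which encodes the secreted thrombin and plasminogen activator inhibitor protease nexin-1, did not overlap between the groups. It had 3.34, 0.753 and 0.811 CPM in the pre-malignant libraries. The stably expanded libraries had 5.94, 4.45 and 4.72 CPM. The log2 fold change was 1.91 ± 0.53 (SE), with an adjusted p-value of 0.0526 (limma), which misses the threshold, and DESeq2 called it while edgeR did not. In de novo expanded libraries it had 0.417, 0.965 and 5.62 CPM, so that library 3 was within the range of the stably expanded clone. Without this library, *Serpine2* was called higher in the stably expanded clone than in de novo expanded clones.

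*Serpinf1*, which encodes pigment epithelium-derived factor, and *Serpini1*, which encodes neuroserpin, gave log2 fold changes of -1.64 ± 0.60 and -1.69 ± 0.74 (SE) in the stably expanded clone, with adjusted p-values of 0.120 and 0.184 (limma) and overlapping groups. Both were called as lower without stably expanded library 2. *Serpinc1* (antithrombin) gave -1.22 ± 0.65 with an adjusted p-value of 0.266. Between the leukemic groups, an unadjusted p-value under 0.05 was reached by 0 of the 4 genes, and their median was -0.56 beside 0.00 for all genes tested. edgeR and DESeq2 called none of them in this comparison or between de novo expanded and pre-malignant clones.

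Proteases, other inhibitors and input genes of the serpins were examined as 6 lists of 64 genes, of which 49 were tested in both comparisons with pre-malignant clones and 50 between the leukemic groups. In the comparison of de novo expanded with pre-malignant clones, 0 list genes were called by limma, edgeR or DESeq2. An unadjusted p-value under 0.05 was reached by 11 list genes, beside 1597 of all 14195 genes tested. In the comparison of the stably expanded clone with pre-malignant clones, 3 were called higher and 1 lower, beside 2.75% of all genes tested in either direction. Without the fold limit, 12 passed the adjusted p-value, as did 7.95% of all genes tested. With 1 fit of all 9 libraries, none of the 4 was called. Without pre-malignant library 2, *Prss57* was the 1 gene called, and without stably expanded library 1, *Prss57* and *Irf8* were called. Between the leukemic groups, none was called by any of these tools and 5 had an unadjusted p-value under 0.05, beside 664 of all 13758 genes tested. De novo expanded library 3 decided the counts in both comparisons of its group. Without it, *Elane* and *Tnfaip3* (the NF-κB feedback inhibitor A20) were called as lower after de novo expansion, and 6 genes were called between the leukemic groups, 4 higher and 2 lower in the stably expanded clone.

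The neutrophil serine proteases, of which elastase, proteinase 3 and cathepsin G are targets of *Serpinb1a*, were all higher in the stably expanded clone than in any pre-malignant library, a pattern of 16.1% of all genes tested. Of 4 genes, 3 passed the adjusted p-value, beside 7.95% of all genes tested in either direction, and *Prss57* was called. The median log2 fold change was 0.77 beside 0.00 for all genes tested. *Prss57*, a protease of azurophil granules, had 502 ± 99.4 normalized counts in pre-malignant and 1194 ± 264 in stably expanded libraries (SD, n = 3), a log2 fold change of 1.25 ± 0.18 with an adjusted p-value of 0.00544 (limma). *Elane*, the gene of neutrophil elastase, had 11097 ± 226 normalized counts in pre-malignant and 19311 ± 3869 in stably expanded libraries (SD, n = 3), with a log2 fold change of 0.78 ± 0.13 and an adjusted p-value of 0.00783 (limma). *Ctsg* (cathepsin G) gave 0.76 ± 0.17 (adjusted p-value 0.0268, limma), and *Prtn3* (proteinase 3) gave 0.40 ± 0.12, which did not pass (0.0707, limma).

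After de novo expansion, these proteases did not move together. *Elane* had 148 and 267 CPM in libraries 1 and 2 but 2148 CPM in library 3, compared with 803 to 833 CPM in the pre-malignant libraries. An unadjusted p-value under 0.05 was reached by 0 of the 4, with a median log2 fold change of -0.06 beside 0.01. Their smallest unadjusted p-values belonged to *Ctsg* (0.41 ± 0.22, adjusted p-value 0.518, limma) and *Elane* (-0.88 ± 0.87, adjusted p-value 0.730, limma). *Serpinb1a* was higher than in all pre-malignant libraries also in libraries 1 and 2, in which *Elane* was lower than in all pre-malignant libraries. Between the leukemic groups, the median log2 fold change of stably over de novo expanded was 0.91 beside 0.00, 0 of the 4 were called and the smallest unadjusted p-value was that of *Ctsg* (0.37 ± 0.14, adjusted p-value 0.891, limma).

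**Figure D4:**
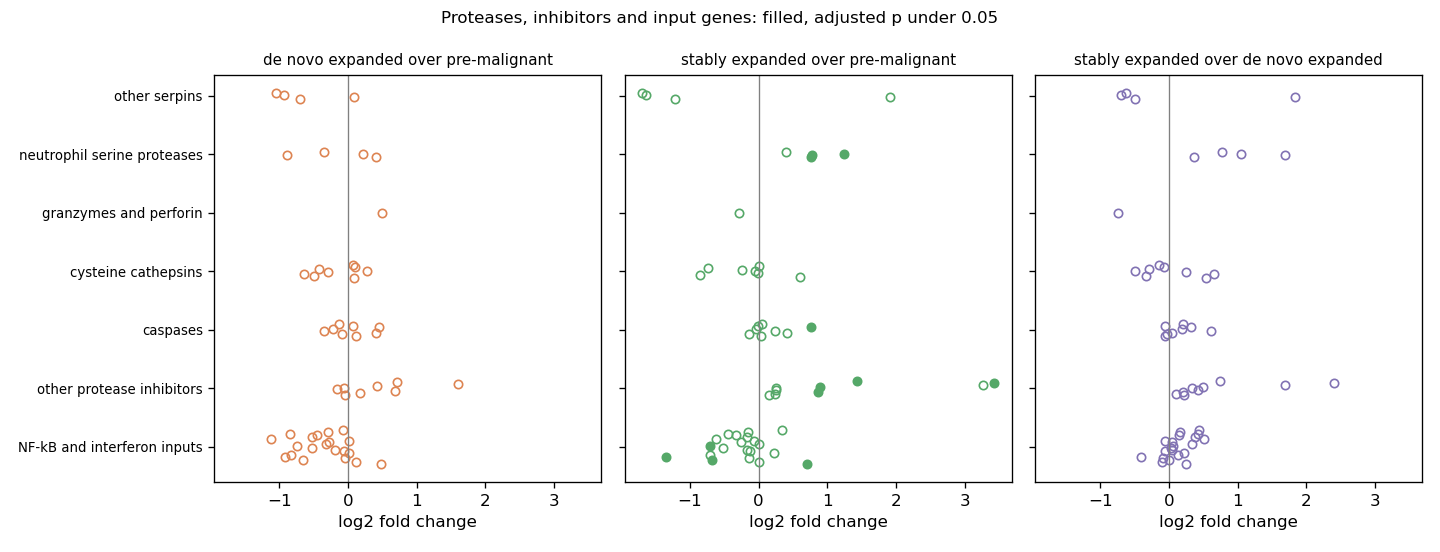
log2 fold change of each tested gene (points) of the other serpins and of the 6 lists in the 3 comparisons. Filled points passed an adjusted p-value of 0.05 (limma), which occurred among list genes only in the stably expanded clone against pre-malignant clones (12 genes).

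Granzyme genes, of which *Gzmb* encodes the target of *Serpinb9* named above, had few reads. Of 6 genes for granzymes and perforin, only *Gzmm* was tested, and it was not called in any comparison, with log2 fold changes of 0.49 ± 0.55 in de novo expanded clones and -0.28 ± 0.54 (SE) in the stably expanded clone over pre-malignant clones, and of -0.75 ± 0.56 between the leukemic groups. *Gzmb*, the gene of granzyme B, had at most 0.203 CPM in any library.

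Cysteine cathepsins, targets of *Serpina3g*, gave 0 calls in each comparison, by limma, edgeR and DESeq2. After de novo expansion, 8 of 11 genes were tested and *Ctsh* had an unadjusted p-value under 0.05, with 1036 ± 269 normalized counts in pre-malignant and 669 ± 181 in de novo expanded libraries (SD, n = 3) and an adjusted p-value of 0.424 (limma). For the stably expanded clone, 7 genes were tested, and *Ctsb* (0.61 ± 0.18, adjusted p-value 0.0585, limma) and *Ctsc* (-0.86 ± 0.26, adjusted p-value 0.0713, limma) had the smallest unadjusted p-values, in opposite directions. Medians were -0.10, -0.06 and -0.11 in the 3 comparisons, beside 0.01, 0.00 and 0.00 for all genes tested. Of 8 caspase genes, all tested, 0 were called in each comparison by limma, edgeR and DESeq2, with medians of 0.00, 0.05 and 0.12 in the 3 comparisons. An unadjusted p-value under 0.05 was reached by 1 of them in de novo expanded clones, by 2 in the stably expanded clone and by 0 between the leukemic groups. Among all genes tested, it was reached by 1597 of 14195, 3553 of 13968 and 664 of 13758.

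Of 15 genes for other protease inhibitors, 9 were tested in the stably expanded clone against pre-malignant clones, and 4 of them were higher at an adjusted p-value under 0.05, beside 7.95% of all genes tested in either direction. All 9 had a positive log2 fold change, with a median of 0.87 beside 0.00, and 6 of the 9 did not overlap, beside 30.7% of all genes. *Stfa2l1*, a stefin that binds cysteine cathepsins, was called with 2.14 ± 1.90 normalized counts in pre-malignant and 30.7 ± 16.7 in stably expanded libraries (SD, n = 3, adjusted p-value 0.0260, limma). *Timp2*, an inhibitor of metalloproteinases, had 29.7 ± 10.2 normalized counts in pre-malignant and 79.2 ± 13.5 in stably expanded libraries (SD, n = 3, adjusted p-value 0.0360, limma). The call of *Timp2* was lost without pre-malignant library 1, 2 or 3 and without stably expanded library 1 or 3, and that of *Stfa2l1* without pre-malignant library 1 or 2 and without stably expanded library 1 or 2. *Cst7* (cystatin F) and *Spint2* (a Kunitz-type inhibitor) passed the adjusted p-value below 2-fold, with log2 fold changes of 0.87 ± 0.11 and 0.90 ± 0.19. In de novo expanded clones the median was 0.29 beside 0.01 with 0 of 8 genes called, and *Cst7* had the smallest unadjusted p-value (0.68 ± 0.30, adjusted p-value 0.449, limma). Between the leukemic groups, *Stfa2l1* had the smallest (2.41 ± 0.64, adjusted p-value 0.891, limma), and 9 of 9 genes had a positive log2 fold change.

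Genes of NF-κB and interferon signaling, known inputs of *Serpina3g*, were compared as 20 genes, all of them tested. In de novo expanded clones, 16 of the 20 genes had a negative log2 fold change, with a median of -0.31 beside 0.01, and 9 genes were lower in all de novo expanded than in all pre-malignant libraries, beside 8.5% of all genes tested. None of them passed the adjusted p-value. The interferon response factor gene *Irf1* had 96.3, 80.8 and 84.2 CPM in the pre-malignant libraries and between 50.4 and 56.5 CPM in de novo expanded libraries (log2 fold change -0.66 ± 0.12, adjusted p-value 0.320, limma). *Nfkb2*, which encodes the p100 and p52 subunits of NF-κB, gave -0.53 ± 0.11 (adjusted p-value 0.330, limma).

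The stably expanded clone had 15 of the 20 genes at a negative log2 fold change against pre-malignant clones, with a median of -0.17 beside 0.00, and 4 passed the adjusted p-value, beside 7.95% of all genes tested. *Irf8*, a transcription factor of monocytes and dendritic cells, was called, with 5885 ± 1645 normalized counts in pre-malignant and 2363 ± 946 in stably expanded libraries (SD, n = 3, adjusted p-value 0.0126, limma). This call was lost without pre-malignant library 2. *Irf1* (-0.68 ± 0.11, adjusted p-value 0.00837, limma) and the NF-κB inhibitor gene *Nfkbia* (-0.70 ± 0.12, adjusted p-value 0.00896, limma) were lower by less than 2-fold. The interferon-γ receptor gene *Ifngr1* was higher (0.70 ± 0.12, adjusted p-value 0.00864, limma). Between the leukemic groups, none of the 20 was called, with a median of 0.10 beside 0.00, and the TNF receptor gene *Tnfrsf1b* had the smallest unadjusted p-value (0.44 ± 0.15, adjusted p-value 0.891, limma).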

How the data were processed

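RNA-Seq of sorted splenocytes was analysed in 9 libraries, 3 per group. The authors prepared the libraries with a stranded total RNA kit, and per the labels reads were processed with Trim Galore 0.6.4, STAR 2.6.1d and featureCounts 1.6.4 on GRCm38.p6. The annotation was GENCODE release M25 according to the methods. The authors then divided read counts by size factors of DESeq2, set within the 6 libraries of each of 3 tables, and this signal (normalized counts) was deposited. The deposited tables also hold the authors' fold changes, standard errors, Wald statistics and p-values, which were not used.

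Normalized counts were turned back into whole reads (at least 99.99% of nonzero values, to within 0.05 reads, and 0 reads differed between tables), from which CPM and RPKM were computed. Reads on genes numbered 10379739 to 15551196. Tests were made on log2(normalized count + 1) of the deposited values with limma 3.58.1 (empirical Bayes with a trend, two-sided, R 4.3.3), in genes whose mean normalized count reached 10, with Benjamini-Hochberg adjustment over all genes tested. The test was checked on simulated data. edgeR 4.0.16 (quasi-likelihood test, TMM) and DESeq2 1.42.0 were run on the recovered reads as alternatives, besides other pseudocounts (0.1 and 5), filters (none and 50), scalings, no fold limit, 1 fit of all 9 libraries and the omission of each library. Sequences were read from RefSeq tables (GRCm38.p6), which held 5 of the 6 members, with Python 3.11.15. Stretches of 38 bases were compared with GENCODE release M1 transcripts, which are older than the annotation of the tables.

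The members, the lists (neutrophil serine proteases, granzymes and perforin, cysteine cathepsins, caspases, other protease inhibitors, NF-κB and interferon inputs, and the markers of 6 cell types and of the sort and design) and the tests were chosen with earlier results of these data known. Of the other serpins, called genes were to be named, or otherwise those without overlap at an unadjusted p-value under 0.05. Of each list, called genes were named, or otherwise up to 2 with the smallest unadjusted p-value, and further genes were named after their values were seen. A few items are not reported here.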

Additional observations from a re-analysis of the deposited data

How the results depend on the processing

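The 6 serpins gave 251 fold changes under the alternatives, of which 250 moved by less than the spread between replicates. The exception was *Serpinb6b* in de novo expanded over pre-malignant clones with a pseudocount of 0.1, which rests on 2 reads in the pre-malignant group and is not given as a fold change. With 3 libraries per group, leaving out 1 library cannot move a fold change by that spread. For these fits the outcome was fixed in advance, so the count of 250 is not a measure of stability. *Serpina3f* ranged from -2.60 to -2.03 in de novo expanded and from -3.30 to -1.92 in stably expanded over pre-malignant libraries when 1 library was left out, *Serpina3g* from -3.20 to -2.23 and from -2.44 to -1.31, and *Serpinb1a* from 0.26 to 0.54 and from 0.80 to 1.11.

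Counts of calls changed with the setting. Among the 6 serpins in de novo expanded over pre-malignant clones, the count was 0 and became 2 with DESeq2, and 0 to 2 when 1 library was left out. In stably expanded over pre-malignant clones, the count was 1 and became 2 with a pseudocount of 5, without a filter on low values, with DESeq2 and without a fold limit, and 0 with a filter at a mean normalized count of 50 (which leaves out *Serpina3f*), with quantile normalization, with edgeR and with 1 fit of all 9 libraries, and ranged from 0 to 2 when 1 library was left out. Among the other serpins in this comparison, the count was 0 and became 1 (*Serpine2*) with a pseudocount of 5, without a filter, with quantile normalization, with TMM scaling and with DESeq2, and ranged from 0 to 2 when 1 library was left out. Among the protease, inhibitor and input genes it was 4 and became 0 with 1 fit of all 9 libraries and 12 without a fold limit, and ranged from 1 to 5 when 1 library was left out. For these genes, leaving out 1 library gave 0 to 2 calls in de novo expanded over pre-malignant clones and 0 to 6 calls between the leukemic groups, and for the other serpins 0 to 1 call between the leukemic groups. The cause of these changes was not tested. No paired analysis was possible because the columns carry neither a clone nor a mouse. *Serpina3f* and *Serpina3g* had between 5 and 173 reads per library, which limits the precision of their values.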
